A study of Mus musculus with 4 samples.

Results

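The 10 genes described here, H19, Igf2, Dlk1, Meg3, Cdkn1c, Peg3, Mest, Plagl1, Grb10 and Ndn, are imprinted genes that were measured in the mouse cerebellum at postnatal day (PN) 7, separately for its anterior and its posterior lobes. Every probe that the array assigned to the symbols H19, IGF2, DLK1, MEG3, CDKN1C, PEG3, MEST, PLAGL1, GRB10 or NDN was taken, with Meg3 also read under its older symbol GTL2, which gave 24 probes for 10 of the 30854 symbols on the array. The genes were picked with earlier results of these same arrays known. Their differences between lobes are therefore described without a test. Total RNA came from untreated Swiss mice, with 2 samples for the anterior lobes and 2 for the posterior lobes, and each sample was hybridized to its own Illumina MouseWG-6 array. The sources do not say whether the samples of a lobe came from separate animals, so any p-value measures only the spread between these samples. The lobes were dissected whole. A lower signal can therefore mean fewer cells of a type or less RNA per cell, and the arrays do not separate the maternal from the paternal allele.

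The dissected tissue carried the transcripts of cerebellar neurons. The granule neuron gene Cbln1 had log2 signals of 14.65 and 14.68 in the anterior and 14.63 and 14.60 in the posterior lobes, and the Purkinje cell gene Pcp2 (probe ILMN_2641456) had 14.07 and 14.06 against 13.91 and 13.98. Of the markers chosen for Purkinje cells, Calb1, Car8 and Pcp4 were not detected on any array, nor was the granule progenitor gene Atoh1. Signals are given throughout as log2 of the probe intensity after quantile normalization, which gives the 4 arrays the same distribution of values, and differences were taken only within a probe. Where a list's brightest gene or summed signal is given, it ranks or adds probe signals and is no measure of transcript amounts between genes. A probe was called detected where its detection p-value, set by the negative control beads of that array, was under 0.05. A gene that its probes did not detect is not thereby shown to be absent from the tissue. Between 46.5% and 47.6% of the 45281 probes were detected per array, and the 21726 probes detected on at least 2 arrays were tested.

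Imprinted genes are transcribed mainly from the copy inherited from 1 parent. H19, Meg3 and Cdkn1c are expressed from the maternal copy, and Igf2, Dlk1, Peg3, Mest, Plagl1 and Ndn from the paternal copy. Grb10 is expressed from the maternal copy in most tissues and from the paternal copy in neurons. Many of them control growth before and soon after birth. Igf2 is a growth factor that signals through the IGF and insulin receptors, whereas Cdkn1c and Grb10 restrain growth. H19 and Igf2 lie next to each other and compete for the same enhancers, with the insulator protein CTCF deciding on each chromosome which of them is reached. In the brain Igf2 is known chiefly from the meninges and the choroid plexus, where its imprint is relaxed.

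H19 makes no protein. Its transcript is the precursor of miR-675, while miR-483 lies within Igf2 and miR-335 within Mest, so these genes also encode the following mature microRNAs. They are printed 5′ to 3′ from RefSeq (build GRCm38.p6), with the seed, bases 2 to 8, in capitals. The seeds of these microRNAs all differ, and none of the microRNAs was itself measured.
mmu-miR-675-5p, chr7:142577112-142577133, − strand: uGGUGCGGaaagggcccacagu
mmu-miR-675-3p, chr7:142577078-142577099, − strand: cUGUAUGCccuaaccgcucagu
mmu-miR-483-5p, chr7:142654968-142654989, − strand: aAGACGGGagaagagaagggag
mmu-miR-483-3p, chr7:142654932-142654952, − strand: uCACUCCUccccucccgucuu
mmu-miR-335-5p, chr6:30741314-30741336, + strand: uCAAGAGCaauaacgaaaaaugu
mmu-miR-335-3p, chr6:30741354-30741375, + strand: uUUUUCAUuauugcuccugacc

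H19 was higher in the posterior lobes on both of its probes. The brighter probe, ILMN_1256343, gave raw intensities of 519.6 and 395.8 on the anterior arrays and 2304.7 and 2974.2 on the posterior arrays. On the log2 scale these became 8.89 and 8.75 against 11.21 and 11.51, with means of 8.82 ± 0.10 and 11.36 ± 0.21 (SD, n = 2). The lowest posterior array thus lay far above the highest anterior array. The difference was 2.54 (standard error by limma 0.13), or 5.80-fold, and it was the 6th highest of the 21726 tested probes.

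The second H19 probe, ILMN_2906728, was close to background in the anterior lobes, with detection p-values of 0.015 and 0.016. Its log2 signals were 7.28 and 7.33 in the anterior and 9.37 and 9.68 in the posterior lobes. The difference was 2.22 (standard error 0.15), or 4.64-fold, and ranked 10th. Both probes therefore separated the lobes without overlap, and each did so within the arrays of either replicate number, by 2.32 and 2.76 for the brighter and 2.08 and 2.35 for the dimmer probe. The mean over beads was precise on each array, with a standard error over beads between 1.87% and 4.51% of the signal for the H19 probes.

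Igf2, the growth factor gene next to H19, was bright in both lobes and differed far less than H19. Its only probe, ILMN_2597769, had raw intensities of 10734.2 and 10800.7 in the anterior and 13403 and 17085.5 in the posterior lobes. The log2 signals were 13.29 and 13.52 against 13.72 and 14.03, with means of 13.40 ± 0.16 and 13.88 ± 0.22. The lobes did not overlap, but the gap between the nearest arrays was smaller than the distance between the 2 arrays of either lobe. The difference was 0.47 (standard error 0.12), or 1.39-fold, and ranked 466th from the highest of all tested probes. Igf2 was also higher on the replicate 2 array than on the replicate 1 array of its lobe, by 0.23 for the anterior lobes and by 0.31 for the posterior lobes.

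**Figure D1:**
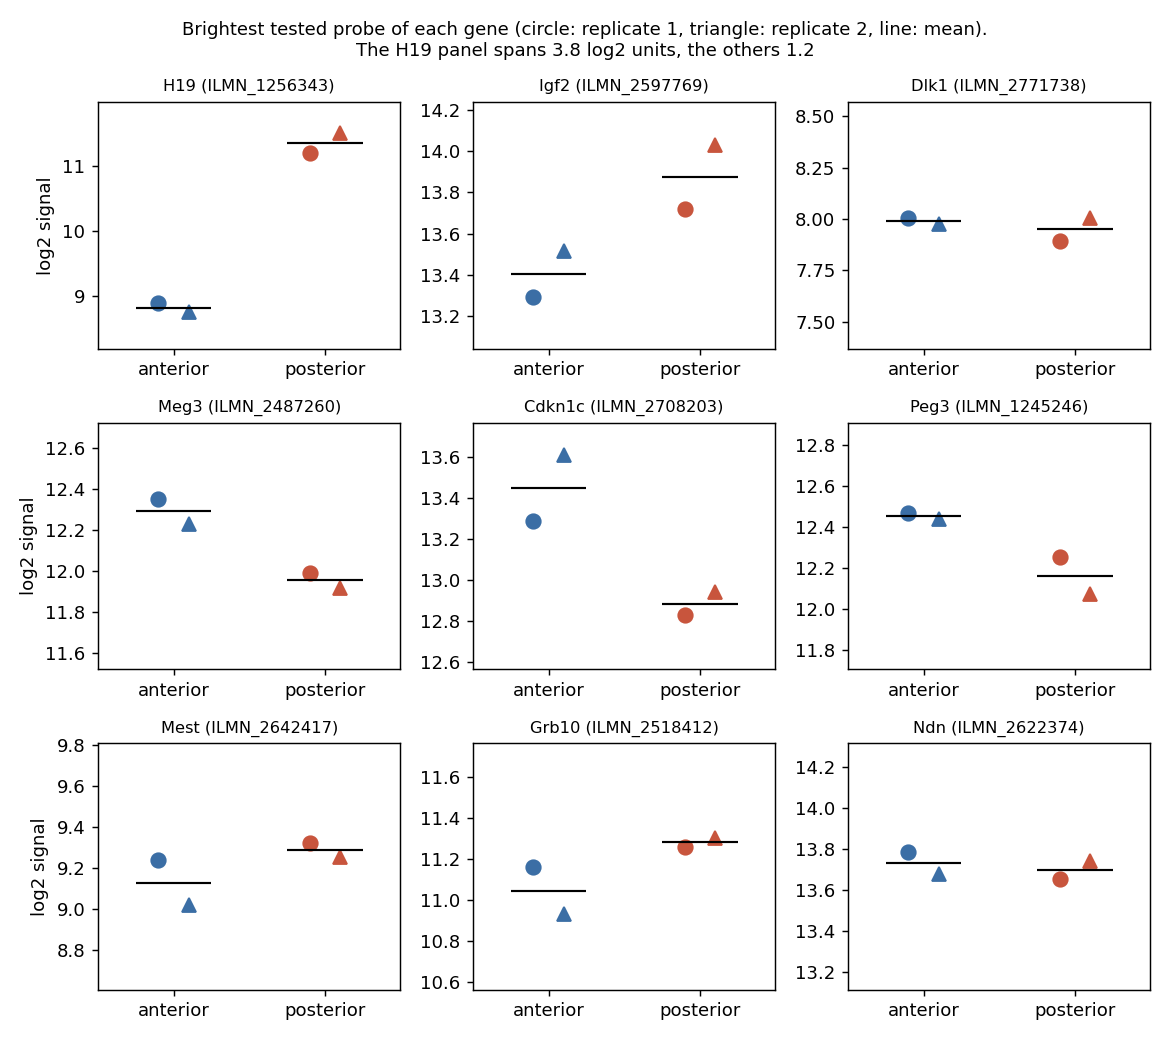
Log2 signal (quantile-normalized, vertical axes) of the brightest tested probe of each of the 9 genes with a tested probe, on the 2 anterior (blue) and 2 posterior (red) arrays; circles are replicate 1, triangles replicate 2, and black lines the mean of a lobe. H19 separates the lobes by 2.54, Igf2 by 0.47 and Cdkn1c by 0.56 in the other direction, while Dlk1 and Ndn overlap.

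Which Igf2 transcripts gave this signal was not tested, since RefSeq lists 4 starts of transcription for Igf2 and the deposited tables do not place the probe. The 250 bases before the most downstream of these starts are shown, because this window holds 2 GC boxes, the letters GGGCGG or CCGCCC that occur on either strand in 32.7% of 32851 RefSeq promoter windows of this length. The window before the first Meg3 start is shown with it, since its TATAAA and TTTATA matches overlap. Such a match was found in 12.4% of the windows. The matches are in capitals and describe letters, not sites that were shown to act.
Igf2, chr7:142657497-142657746, − strand: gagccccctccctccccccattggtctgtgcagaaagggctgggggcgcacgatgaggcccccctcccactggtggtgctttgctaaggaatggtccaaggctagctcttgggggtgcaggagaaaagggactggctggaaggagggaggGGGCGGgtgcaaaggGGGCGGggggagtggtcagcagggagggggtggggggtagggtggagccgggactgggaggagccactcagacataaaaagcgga
Meg3, chr12:109540746-109540995, + strand: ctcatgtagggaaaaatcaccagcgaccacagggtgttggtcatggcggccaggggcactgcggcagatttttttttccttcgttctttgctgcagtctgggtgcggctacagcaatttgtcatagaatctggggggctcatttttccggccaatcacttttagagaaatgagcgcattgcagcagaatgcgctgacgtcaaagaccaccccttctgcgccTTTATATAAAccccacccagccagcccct

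Cdkn1c was lower and Grb10 slightly higher in the posterior lobes. Cdkn1c encodes the cyclin-dependent kinase inhibitor p57, and its probe ILMN_2708203 had raw intensities of 10714.9 and 11567.5 in the anterior and 7118.5 and 8051.1 in the posterior lobes. These gave log2 signals of 13.29 and 13.61 against 12.83 and 12.94. Both posterior arrays were below both anterior arrays. The difference was -0.56 (standard error 0.11), which is a 1.48-fold higher signal in the anterior lobes, and it was the 256th lowest of all tested probes.

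Grb10 encodes an adaptor that binds the insulin and IGF1 receptors and dampens their signals. Its probe ILMN_2518412 gave 11.16 and 10.93 in the anterior and 11.26 and 11.30 in the posterior lobes. The posterior arrays were both higher, by a mean of 0.24 (standard error 0.10), or 1.18-fold, which is under the 1.2-fold used in the study, and the anterior arrays differed by nearly as much among themselves. Without the anterior replicate 1 array the difference was 0.35, and without anterior replicate 2 it was 0.12. Another Grb10 probe was detected only on the anterior replicate 2 array and the remaining one on none.

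In the Dlk1 and Meg3 cluster the protein gene was level and the noncoding RNA was lower in the posterior lobes on some probes. Dlk1, a Notch ligand relative of progenitor cells, had raw intensities of 280.4 and 230 against 235.2 and 257.7 on ILMN_2771738, with log2 means of 7.99 and 7.95, and its lobes overlapped. Its second probe was not detected. Meg3, the maternal long noncoding RNA, had 5 probes. The brightest of these, ILMN_2487260, gave 12.35 and 12.23 in the anterior and 11.99 and 11.92 in the posterior lobes, a difference of -0.34 (standard error 0.080). ILMN_1227149 was also lower in the posterior lobes without overlap, at 10.30 and 10.27 against 10.07 and 9.82, with a difference of -0.33 (standard error 0.12).

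The other Meg3 probes did not separate the lobes. ILMN_2523012 gave 10.49 and 10.32 against 10.40 and 10.33. ILMN_2601176 spread most between the anterior arrays, with 9.94 and 9.14 against 9.48 and 9.29 in the posterior lobes, and ILMN_2500067 was not detected on any array. Since Meg3 is spliced in many forms, the probes need not report the same RNA, and this could not be told apart here.

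Peg3, a paternally expressed zinc finger gene known for its part in maternal behaviour, was lower in the posterior lobes on all of its probes. ILMN_1245246 gave 12.47 and 12.44 in the anterior and 12.26 and 12.07 in the posterior lobes, a difference of -0.29 (standard error 0.085). The second, ILMN_2677270, gave 10.20 and 10.38 against 10.04 and 9.97, a difference of -0.28 (standard error 0.11). Neither overlapped. The third, ILMN_1225513, gave 7.21 and 7.53 against 6.80 and 7.14. It was near background and not detected on the posterior replicate 1 array.

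Mest, which encodes an enzyme of the hydrolase fold, leaned the other way. ILMN_2642418 gave 8.20 and 8.14 in the anterior and 8.44 and 8.56 in the posterior lobes, a difference of 0.33 (standard error 0.12), or 1.26-fold. For ILMN_2642417 the difference was 0.16 (standard error 0.13) with 9.24 and 9.02 against 9.32 and 9.25, and for ILMN_2846904 the lobes overlapped. Ndn encodes necdin, a growth suppressor of postmitotic neurons. Its signals were 13.78 and 13.68 against 13.66 and 13.74, so the lobes overlapped at a high signal. Plagl1, a zinc finger factor known to activate other genes of this network, had 3 probes and was not detected on any array.

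In all, 17 of the 24 probes, from 9 genes, passed the detection filter, 16 of them on all 4 arrays. Among the 17, the arrays of the lobes overlapped for 5, whereas without overlap 6 were higher in the posterior lobes and 6 lower. Over all tested probes 21.1% were higher and 21.5% lower in this way, but the genes were picked on this contrast and nothing is read from their counts. With a difference of more than 1.2-fold as well, 4 probes were higher (H19, Igf2 and Mest) and 6 lower (Meg3, Cdkn1c and Peg3), beside 5.07% and 7.09% of all tested probes. The median over the 9 genes, each by its brightest tested probe, was -0.03, and over all tested probes it was 0.0023. Leaving out 1 array moved the difference of Meg3 ILMN_1227149 to -0.21 (without posterior replicate 2), of Peg3 ILMN_1225513 to between -0.57 and -0.23 (posterior replicate 2 or 1 left out, respectively), with -0.66 under neqc normalization, and of Mest ILMN_2642417 to 0.05 (without anterior replicate 2) or 0.27 (without anterior replicate 1). Apart from H19, no gene differed by more than 0.56 on its brightest probe.

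**Figure D2:**
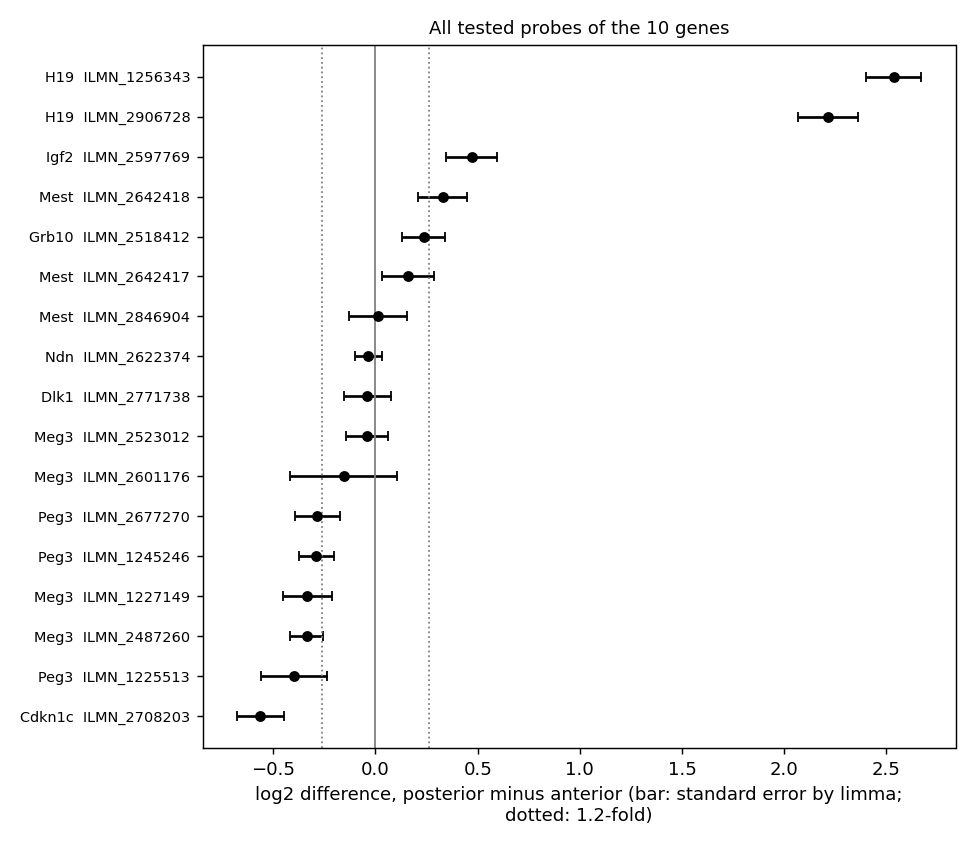
Log2 difference, posterior minus anterior lobes (horizontal axis), for the 17 tested probes of the 10 genes, with the standard error by limma as bars and 1.2-fold as dotted lines. The H19 probes lie at 2.54 and 2.22, and no other probe of these genes passes 0.47 upward or -0.56 downward.

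The replicate numbers differed in Xist. This noncoding RNA that coats the inactive X chromosome in female cells had 13.05 on the anterior and 13.01 on the posterior replicate 1 array and only 7.07 and 6.83 on the replicate 2 arrays (ILMN_2475156). The replicate 1 arrays were thus high and the replicate 2 arrays near background in both lobes, so the arrays of a lobe did not carry the same RNA. Of the 17 tested probes of the 10 genes, 12 had a difference between lobes of the same sign within each replicate number, beside 61% of all tested probes.

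Imprinted genes outside the 10 differed between lobes in a few cases. The criterion used in the study was a fold difference above 1.2 together with a p below 0.05, taken here as a limma p before adjustment. It was met by 8.29% of all tested probes (3.3% up and 5% down in the posterior lobes). Of 24 other paternally expressed genes, 13 were tested with 25 probes. Of these probes 1 was up-regulated and 4 were down-regulated in the posterior lobes, and 0 had an adjusted p by limma under 0.05, while 6 had an unadjusted p under 0.05 by limma and 2 by the methods' t-test. Their median was -0.02.

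Rasgrf1, which encodes an exchange factor for Ras in neurons, was down-regulated on 3 of its probes. Of these calls only that of ILMN_1233146 held under every alternative. The methods' t-test lost those of ILMN_2699663 and ILMN_3055230, and the latter was also lost on leaving out anterior replicate 2 or either posterior array. ILMN_1233146 gave 13.22 and 13.21 in the anterior and 12.63 and 12.80 in the posterior lobes, a difference of -0.50 (adjusted p by limma 0.12). The retrotransposon-like gene Rtl1, the paternal neighbour of Meg3, had 9.06 and 8.90 against 8.71 and 8.53, a difference of -0.36 (adjusted p by limma 0.45). The other call was Nnat, neuronatin, on 1 of 3 tested probes, with 10.08 and 9.73 against 10.28 and 10.22 (difference 0.35, adjusted p by limma 0.49). That call was lost without normalization, with cyclic loess, without the intensity trend, on leaving out anterior replicate 2 or either posterior array, and with the methods' t-test. Snurf was the brightest of the list and lay at -0.10. Peg10, Sgce, Magel2, Peg12, Zrsr1, Dio3, Ins2, Mcts2, Slc38a4 and Airn were not detected on any array.

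Of 27 other genes chosen as maternally expressed in some tissue, 13 were tested with 20 probes, of which 1 was up-regulated and 1 down-regulated, with a median over genes of 0.09. Which copy of these genes was transcribed in the lobes was not measured. Ube3a, a ubiquitin ligase gene that is imprinted in neurons, passed on 1 of its 4 tested probes, at 8.44 and 8.25 against 8.74 and 8.83 (difference 0.45, adjusted p by limma 0.37). Its other probes lay between -0.22 and -0.05. Osbpl5, an oxysterol-binding protein gene from the same imprinted domain as Cdkn1c, gave 9.10 and 9.04 against 8.73 and 8.79 (difference -0.31, adjusted p by limma 0.45). None of these 20 probes had an adjusted p under 0.05, and 2 had an unadjusted p under 0.05 by limma and by the methods' t-test alike. Over both lists together the 7 calls became 2 with the methods' t-test, while over all tested probes 1802 calls became 741. The Rtl1, Ube3a and Osbpl5 calls were lost on leaving out either posterior array. Those of Rtl1 and Osbpl5 were also lost without normalization and without anterior replicate 1, and those of Rtl1 and Ube3a with the methods' t-test. With an array left out the number of calls also changed over all tested probes. Cd81 was the brightest, and Phlda2, Slc22a18, Ascl2, Kcnq1, Tnfrsf23, Tfpi2, Calcr, Asb4, Klf14, Zim1, Slc22a3 and Slc22a2 were not detected.

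The IGF ligands, their receptors and adaptors, the IGF binding proteins and the RNA-binding Igf2bp proteins were read from a list of 16 genes, of which 13 were tested with 25 probes. Here 3 probes were up-regulated in the posterior lobes and 0 down-regulated, and 0 had an adjusted p under 0.05, while 4 had an unadjusted p under 0.05 by limma and 2 by the methods' t-test. The Igfbp2 call was lost with the methods' t-test and the Igfbp3 call without normalization. Without posterior replicate 2 the calls of Igfbp2 and Igfbp3 were lost, and without posterior replicate 1 that of Igfbp3. Igfbp6 was not tested without a posterior array. More probes were called up-regulated without either anterior array. Calls over all tested probes moved in the same directions. The called probes belonged to binding proteins. Igfbp6, a binding protein that prefers Igf2 over Igf1, had 6.88 and 6.97 in the anterior lobes, where it was not detected, and 8.03 and 8.36 in the posterior lobes. It was at least 2.26-fold higher there (adjusted p by limma 0.062), a bound taken against the lowest detected signal of each anterior array, and it passed the filter only through the posterior arrays.

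Igfbp2 had 10.09 and 10.19 against 10.46 and 10.74 on ILMN_2930897 (difference 0.46, adjusted p by limma 0.33). For Igfbp3 the values were 8.02 and 8.12 against 8.45 and 8.45 (difference 0.38, adjusted p by limma 0.39). The second probes of both genes missed the criterion. Igfbp5 was the brightest of the list and level, at 13.64 and 13.42 against 13.51 and 13.53 on ILMN_1254358. The receptor genes Igf1r, Igf2r and Insr gave no call, and Igfbp1 and Igf2bp1 were not detected.

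Genes on either side of H19 and Igf2 on chromosome 7 were mostly not detected in either lobe. Of 12 neighbours, 8 had no detected probe, among them Ins2, Th and Ascl2 beyond Igf2 and Tnnt3, Lsp1, Syt8 and Ctsd beyond H19, with Tspan32 as the last. The nearest detected neighbour of H19 was Mrpl23, a mitochondrial ribosome gene, with 13.03 and 12.97 against 13.05 and 13.11. Cd81 was the brightest and Tssc4 the third gene tested. None of the 4 tested probes met the criterion, and 0 had an unadjusted p under 0.05 by limma or by the methods' t-test. With the anterior replicate 1 array left out a probe of this list was called lower, when calls over all tested probes also rose.

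Factors that set or read the H19 imprint or act on these transcripts were measured as 15 genes, of which 8 were tested with 12 probes. None met the criterion, and 0 had an unadjusted p under 0.05 by limma or by the methods' t-test. Without overlap, 9 probes were higher in the posterior lobes and 0 lower, beside 21.1% and 21.5% of all tested probes. Several of the 9 were probes of Igf2bp3. The median over genes was 0.13, and the largest difference was 0.38 for Igf2bp3 (ILMN_1218913). Without the anterior replicate 1 array probes of this list were called in both directions, when calls over all tested probes also rose. Ctcf, the insulator protein gene, gave 11.09 and 11.01 against 11.16 and 11.17. Zfp57, which protects imprints, gave 9.58 and 9.41 against 9.81 and 9.73. Trim28, its partner, was the brightest, with 13.81 and 14.12 against 13.74 and 13.92. The genes Ctcfl, Dnmt3a, Dnmt3l, Lin28a, Lin28b, Igf2bp1 and Afp were not detected.

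**Figure D3:**
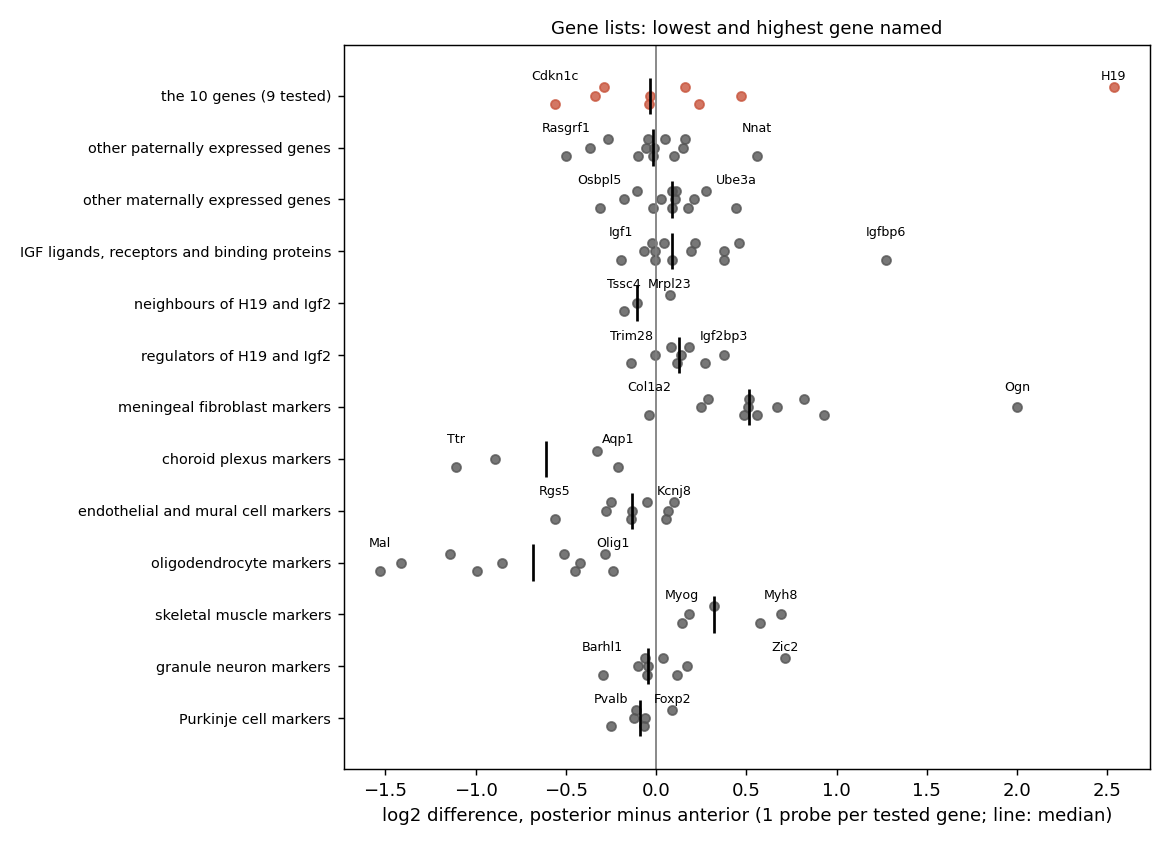
Log2 difference, posterior minus anterior lobes (horizontal axis), with 1 point per tested gene by its brightest tested probe, for the 10 genes (red) and the 12 other lists; black lines are list medians and the lowest and highest gene of each list is named. Igfbp6, Crabp2 and Myh3 were not detected in the anterior lobes, so their points are not measured folds. The Nnat point at 0.56 is from ILMN_2755578, whose lobes overlapped and which was low on the anterior replicate 2 array alone. Medians of the imprinted lists lie near 0, those of meningeal fibroblast markers at 0.52 and of oligodendrocyte markers at -0.68.

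H19 and Igf2 are both known from connective tissue, and the transcripts of meningeal fibroblasts differed between the lobes as well. Of 12 such markers 11 were tested, with 16 probes, and 10 probes of 7 genes were up-regulated in the posterior lobes and 0 down-regulated. The median was 0.52, and 10 of the 11 genes were above 0. Decorin (Dcn), the brightest, had 11.77 and 11.69 against 12.67 and 12.66 (ILMN_2747959, difference 0.93, adjusted p by limma 0.024). Osteoglycin (Ogn) had 8.01 and 7.93 against 9.73 and 10.21 (difference 2.00, adjusted p by limma 0.035). The other genes called were Lum, Col3a1, Aldh1a2, Slc6a13 and Crabp2, with differences of 0.51, 0.49, 0.67, 0.56 and, for Crabp2, a signal at least 1.48-fold higher. The Crabp2 probe and ILMN_1254458 of Dcn passed the filter only through the posterior arrays, and Foxd1 was not detected. Fewer fibroblast probes were called without the posterior replicate 2 array, when calls over all tested probes also fell. The summed signal of the list was 7514 and 8407 in the anterior and 12678 and 14160 in the posterior lobes, a ratio of 1.69. H19 differed by more than this sum and Igf2 by less. The part of meningeal tissue in their difference was not tested.

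Skeletal muscle, where H19 is also strongly expressed, was read from 8 markers. Of these 5 were tested, 3 of them with a probe detected on all 4 arrays, and 3 probes of Myh3 and Myh8, the embryonic and perinatal myosins, were up-regulated. The median was 0.32, but 0.16 without the detection filter and 0.20 without the replicate 1 array of either lobe, and with detection on all 4 arrays 1 probe was called. Myh8 had 8.12 and 7.88 against 8.68 and 8.71 (ILMN_1223735, difference 0.69, adjusted p by limma 0.20). The Myh3 probe was detected only in the posterior lobes, at 7.25 and 7.19, and passed the filter only through them. Acta1 was the brightest, and Ckm, Myod1 and Myf5 were not detected on any array. The summed signal was 1057 and 1030 against 1381 and 1331, a ratio of 1.30, and its part in the H19 difference was not tested.

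Choroid plexus, another source of Igf2, was unequal between the samples of a lobe. Transthyretin (Ttr) had 9.10 and 13.34 in the anterior and 8.37 and 11.85 in the posterior lobes, and was thus high on both replicate 2 arrays. Within each replicate number it was lower in the posterior lobes, with log2 differences of -0.73 and -1.49, although the lobes overlapped. All 4 tested genes of the 10 chosen had a lower mean in the posterior lobes, with a median of -0.61, and Clic6 was down-regulated without overlap (difference -0.89, adjusted p by limma 0.39). The Clic6 call was lost without posterior replicate 1 and with the methods' t-test. Other probes were called lower without anterior replicate 1, when calls over all tested probes also rose. Slc4a5 and Steap1 were not detected. The summed signal was 1339 and 11586 against 933 and 4395, and the direction of its means rests on the anterior replicate 2 array, without which the posterior mean is the higher. Igf2 was higher on the same replicate 2 arrays, by the 0.23 and 0.31 given above, while within each replicate number Igf2 was higher and the choroid plexus sum lower in the posterior lobes. The part of choroid plexus in the Igf2 signal was not tested.

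Markers of vessel cells overlapped between the lobes in their summed signal. Of 10 endothelial and mural markers 9 were tested, with a median of -0.14 and summed signals of 8963 and 11008 against 9858 and 9330. Cldn5 was the brightest, Slco1a4 was not detected, and 0 of 10 probes had an unadjusted p under 0.05 by limma or by the methods' t-test. Some were called lower without the anterior replicate 1 array, when calls over all tested probes also rose. Oligodendrocyte markers were down-regulated in the posterior lobes on 19 of 21 probes, with a median of -0.68 and summed signals of 110936 and 108368 against 78028 and 72861, led in brightness by Mbp. The called genes included Mbp, Mog, Mag, Mobp, Mal, Cnp, Cldn11 and Sox10, with a difference of -1.53 for Mal. Cdkn1c, Meg3 and Peg3 were lower on the same arrays, and the part of oligodendrocytes in that was not tested. Granule neuron markers had a median of -0.04 with 1 call, Zic2 on ILMN_2470518 (difference 0.72, adjusted p by limma 0.39). Purkinje cell markers had a median of -0.09 and no call, with 1 of 14 probes at an unadjusted p under 0.05 by limma and 1 by the methods' t-test. Purkinje probes were called in both directions without the anterior replicate 1 array, when calls over all tested probes also rose. The Zic2 call was lost without posterior replicate 1 and with the methods' t-test. Itpr1 was the brightest Purkinje gene.

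**Figure D4:**
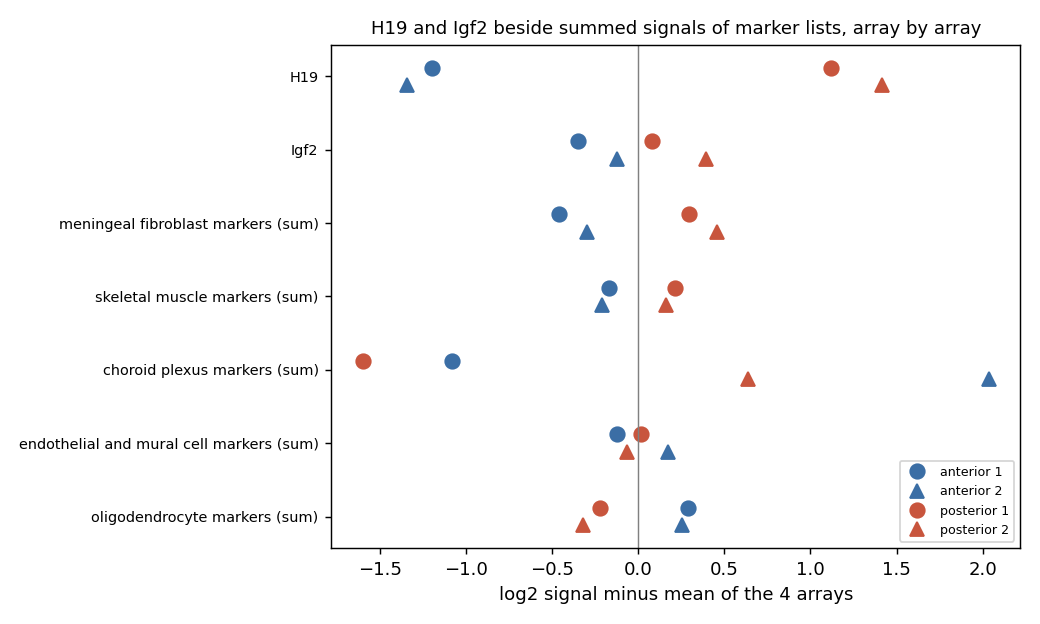
Log2 signal minus its mean over the 4 arrays (horizontal axis) for H19 and Igf2 by their brightest probe and for the summed signals of 5 marker lists; blue is anterior, red posterior, circles are replicate 1 and triangles replicate 2. Fibroblast and muscle sums separate the lobes in the direction of H19 and Igf2, the choroid plexus sum separates the replicate numbers, and the oligodendrocyte sum runs the other way.

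The probes whose pattern was most like that of H19 were found by the Euclidean distance between log2 signals centred on their mean over the 4 arrays, among 19912 probes detected on all arrays. The nearest was Moxd1, a monooxygenase-like gene (distance 0.363), with 7.17 and 7.38 against 9.60 and 9.64. It was followed by Ogn (0.553), the calcification inhibitor gene Mgp (0.617), the nicotinic receptor subunit gene Chrna3 (0.836) and the microtubule-binding gene Clasp2 (0.910). The nearest to Igf2 were Cdc42ep5 (0.0794), Igfbp2 (0.0977), Hist1h3h (0.112), Tgfbi (0.113) and the transporter gene Slc6a13 (0.117). Slc6a13 and Ogn belong to the fibroblast markers above, and Igfbp2 to the IGF list. With 4 arrays such a likeness is a description only.

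**Figure D5:**
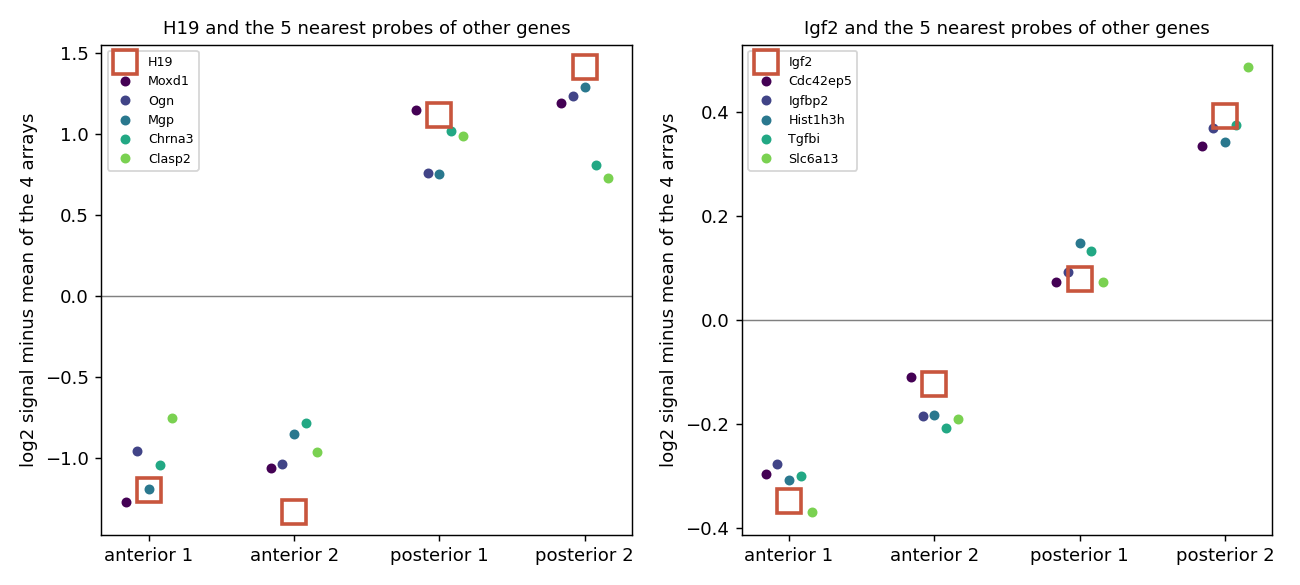
Log2 signal minus the mean of the 4 arrays (vertical axes) for H19 (left) and Igf2 (right, open squares) and the 5 probes of other genes nearest to each (dots), on each array. Arrays of a lobe lie apart in both sets, and the posterior arrays differ by 0.30 for H19 and by 0.31 for Igf2. In the H19 set the step between lobes is large beside such distances. In the Igf2 set it is not, and replicate 2 lies above replicate 1 in both lobes. The probes were picked for their likeness, so a shared pattern within a set is given by the choice.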

How the data were processed

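The authors hybridized biotin-labelled cRNA of 4 samples to Illumina MouseWG-6 arrays and deposited the raw table. The deposited values are the mean intensity per probe, the standard deviation of intensity over beads, the number of beads (a median of 40 to 42 per array) and the detection p-value, a fraction of negative controls. The scanner software's version and background setting are not given in the sources used here, and 16 further columns were not used. The median intensity per array was between 110.2 and 129.6, and the number of arrays limits the precision.

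Intensities were floored at 1, taken to log2 and quantile-normalized, and the 21726 probes detected (p-value under 0.05) on 2 or more arrays were fitted with limma 3.58.1 in R 4.3.3 (eBayes with an intensity trend, Benjamini-Hochberg adjustment over all of them). The smallest exact two-sided permutation p for 2 arrays against 2 is 0.33. The fit was tested on simulated data. Samples were grouped by the lobe in their titles. The members and lists were chosen with earlier results of these data known.

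Named were every probe of the 10 genes and, from each other list, genes with a probe past the study's criterion, the brightest gene and the undetected genes, and the 5 probes nearest to H19 and Igf2. Pcp2, Igf1r, Igf2r, Insr, Mrpl23, Tssc4, Ctcf, Zfp57 and Xist were named outside this rule, after their values were seen. Of 166 list genes, 161 had a probe, 5 under an older symbol. Genes with several probes were read by the brightest tested one. Alternatives were other normalizations (none, a common 75th percentile, cyclic loess, neqc), other filters, no trend, the methods' t-test, a replicate block and leaving out each array. Sequences came from RefSeq (GRCm38.p6), and 8 of the 10 genes had a promoter window there.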

Additional observations from a re-analysis of the deposited data

How the results depend on the processing

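Over 12 alternatives at most per probe, 202 values were recomputed for the 17 probes of the 10 genes. Of these 195 stayed within the replicate spread of the reported value, and 7 moved beyond it. The sign turned under some alternative for the 5 probes whose lobes overlapped, namely Dlk1 ILMN_2771738, Meg3 ILMN_2523012 and ILMN_2601176 (up to 0.24), Mest ILMN_2846904 and Ndn ILMN_2622374. The mean difference of both H19 probes was 2.38, 2.79 with neqc and 2.54 with the brightest probe alone, and leaving out an array gave 2.22 to 2.54. Leaving out an array gave medians of the 9 tested genes from -0.08 to 0.02, positive without the anterior or the posterior replicate 1 array. Probes past the study's criterion numbered 1802, 741 with the methods' t-test and 766 to 4677 with an array left out (4677 without anterior replicate 1, 766 and 811 without posterior replicate 1 and 2). Probes with an adjusted p under 0.05 numbered 23, 123 without normalization, 73 without a filter, 13 without the trend, 0 with the t-test (1763 had an unadjusted p under 0.05) and 0 to 2538 with an array left out. Removal of anterior replicate 1 gave the 2538, removal of anterior replicate 2 gave 221, and removal of posterior replicate 1 or 2 gave 0 (785 and 825 with an unadjusted p under 0.05 by limma). Probes of the other imprinted genes past the criterion numbered 7, 2 with the t-test and 2 to 13 with an array left out (13 without anterior replicate 1, 2 without either posterior array). With an array left out the spread comes from the 2 arrays of the other lobe alone (SD of their log2 difference 0.318 for the anterior and 0.203 for the posterior lobes), on the assumption that the remaining single array has the same spread. Removing either anterior array left the same posterior arrays to set the spread, yet the counts given above differed. The cause of the changed counts was not tested for any setting. Higher signals in the posterior lobes made up 39.7% of the criterion calls, but 53.5% with a common 75th percentile.

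Same-numbered arrays deviated from their lobe means together (r = 0.46 over tested probes), but the labels do not say that the numbers pair the samples. With the replicate block, 2818 probes passed the criterion, 588 had an adjusted p under 0.05, and 9 probes of the other imprinted genes passed, while the H19 difference stayed 2.38 and the median of the 9 tested genes -0.03.

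Counts of the marker and IGF lists were recomputed as alternatives chosen after seeing the data. Fibroblast probes past the criterion numbered 10, but 6 with detection on all 4 arrays, 4 with the t-test and 3 without posterior replicate 2. The fibroblast median stayed between 0.35 and 0.66. The 3 muscle calls were 1 with detection on all 4 arrays, 1 without posterior replicate 2 and 5 with a common 75th percentile, and the muscle median of 0.32 ran from 0.16 without the filter to 0.52 with neqc. The 0 calls among the regulators became 1 with a common 75th percentile, 1 without the trend and 2 with the replicate block, and the 0 endothelial and mural calls became 2 with the block and 1 without normalization or without the filter. With the block the IGF list had 5 calls, choroid plexus 3 in place of 1, and Purkinje markers 2 higher and 2 lower in place of 0, with 2 lower without normalization. The 3 IGF calls were 6 without either anterior array, with 1 lower call added without anterior replicate 2, 1 without posterior replicate 1 and 0 without posterior replicate 2. Oligodendrocyte calls stayed between 18 and 20.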

Other observations

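The anterior replicate 2 array held single probes far below the other arrays. Igf2r, the receptor that takes up and clears Igf2, gave 9.57, 9.72 and 9.52 on the other arrays but 7.97 there (ILMN_2931096, intensity 229.6 over 27 beads), while its second probe, ILMN_2931095, gave 9.69 there and 9.80 to 9.87 elsewhere. For Nnat, ILMN_2755578 gave 9.48 there and at least 10.56 elsewhere. These genes were singled out after their values were seen. Over the 21726 tested probes, 137 lay more than 1 log2 unit below all other arrays on anterior replicate 2, against 3 on posterior replicate 1 and 0 on each of the others.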
